A study of Homo sapiens with 16 samples.

Results

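The 56 genes described here carry the TGF-beta, BMP and Notch signals, and they were taken by symbol from the gene tables of a BRD9 deletion time course, out of 57820 gene IDs in all. The experiment used G401, a human rhabdoid tumor cell line that lacks a working SMARCB1, a subunit of the SWI/SNF chromatin remodeler. BRD9 is a bromodomain subunit of a SWI/SNF sub-complex in which the study found no SMARCB1. Cells stably expressing Cas9 received a BRD9 guide (BRD9 KO) or a LacZ guide, which has no target in the human genome, were selected with puromycin, and gave total RNA on days 1, 2, 3 and 5, with 2 libraries in each of 8 groups. All 16 libraries therefore carry Cas9, a guide vector and the SMARCB1 defect, and the cells are a guide-treated population of a single line, whose share of cut alleles was not measured in these files. The event from which the days are counted is not stated. The study's methods call the 2 libraries of a group biological replicates without saying whether they came from separate cultures, so p-values measure the spread between these libraries. RNA came from whole cultures, in which fewer expressing cells and less RNA per cell cannot be told apart.

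Library totals ran between 9185808 and 16560669 estimated counts in BRD9 KO libraries and between 11252814 and 15430060 in LacZ libraries. BRD9 itself ran from 16.6 to 25.9 CPM (counts scaled to a common library total, with the TMM correction for library composition) in BRD9 KO libraries and from 45.8 to 64.5 CPM in LacZ libraries, without overlap. SMARCB1 was at 0 in the 8 BRD9 KO libraries and reached 2 counts in a single LacZ library. Vimentin and keratins 8 and 18 were abundant in every library. Of the blood list, CD3E and PTPRC were at 0 throughout, whereas CD68, a lysosomal protein of macrophages that other cells also make, was at 62.3 to 135 CPM in BRD9 KO libraries and 65.3 to 126 CPM in LacZ libraries; the endothelial list summed to at most 0.0842 CPM in a BRD9 KO library and 0.0792 CPM in a LacZ library.

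TGF-beta and activin ligands bring together type I and type II receptor kinases that phosphorylate SMAD2 and SMAD3, whereas BMP ligands act through other type I receptors on SMAD1, SMAD5 and SMAD9, and both branches use SMAD4 to reach DNA. Notch receptors are cleaved after contact with a Delta or Jagged ligand on a neighbouring cell, and the freed intracellular part joins RBPJ and MAML1 at target genes. The pathways are known for setting cell identity in kidney development, and each induces its own inhibitors. Of the 56 genes, 19 belong to the TGF-beta and activin branch, 20 to the BMP branch, 15 to the Notch pathway, and 2, SMAD4 and SMAD7, serve both SMAD branches.

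The 3 most abundant genes of the set belonged to the BMP branch. On the TPM scale, which corrects for transcript length and allows genes to be compared, ID3, a BMP-induced inhibitor of DNA-binding helix-loop-helix factors, had a median of 817 TPM in BRD9 KO libraries and 780 TPM in LacZ libraries. BMP4, a ligand, had medians of 441 and 430 TPM in BRD9 KO and LacZ libraries, and ID1 had 291 and 276 TPM. RBPJ, the DNA-binding factor of Notch, followed at 247 TPM in BRD9 KO libraries and 249 TPM in LacZ libraries, and its LacZ range of 206 to 271 TPM overlapped that of ID1, 173 to 319 TPM. LTBP2, a matrix protein of the latent TGF-beta binding family, and the receptor NOTCH2 came next, with LacZ medians of 128 and 97.9 TPM and ranges that overlapped, 99.1 to 149 and 87.5 to 113 TPM. The leading receptors of the other branches were lower, TGFBR3 with a LacZ median of 44.3 TPM and BMPR1A with 24.2 TPM.

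A filter on low counts kept 41 genes for testing and left out 15. Left out of the TGF-beta and activin branch were the ligand genes TGFB2, INHBA and INHBB, the type II receptor TGFBR2, the activin inhibitor FST and the TGF-beta-induced matrix gene TGFBI. TGFBR2, without which TGF-beta ligands do not signal in most cells, had 2 counts in a single library and 0 in the other 15. From the BMP branch the ligand BMP2, the type I receptor BMPR1B, the transducer SMAD1 and the inhibitors NOG and GREM1 were left out, and SMAD1 and GREM1 had no count in any library. Of the Notch pathway JAG1, NOTCH4, HEY1 and HEYL were left out. JAG1 is listed under a pair of IDs that reached 3 counts and 0 counts in a library. NOTCH4 was the highest of the 15, with up to 10.1 counts in a library and 90.1 counts over the 16 libraries. In a library where a gene had no count, a level of up to 3 counts is allowed, which is 0.181 to 0.327 CPM in BRD9 KO libraries and 0.194 to 0.267 CPM in LacZ libraries. These limits cover counting error only.

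**Figure D1:**
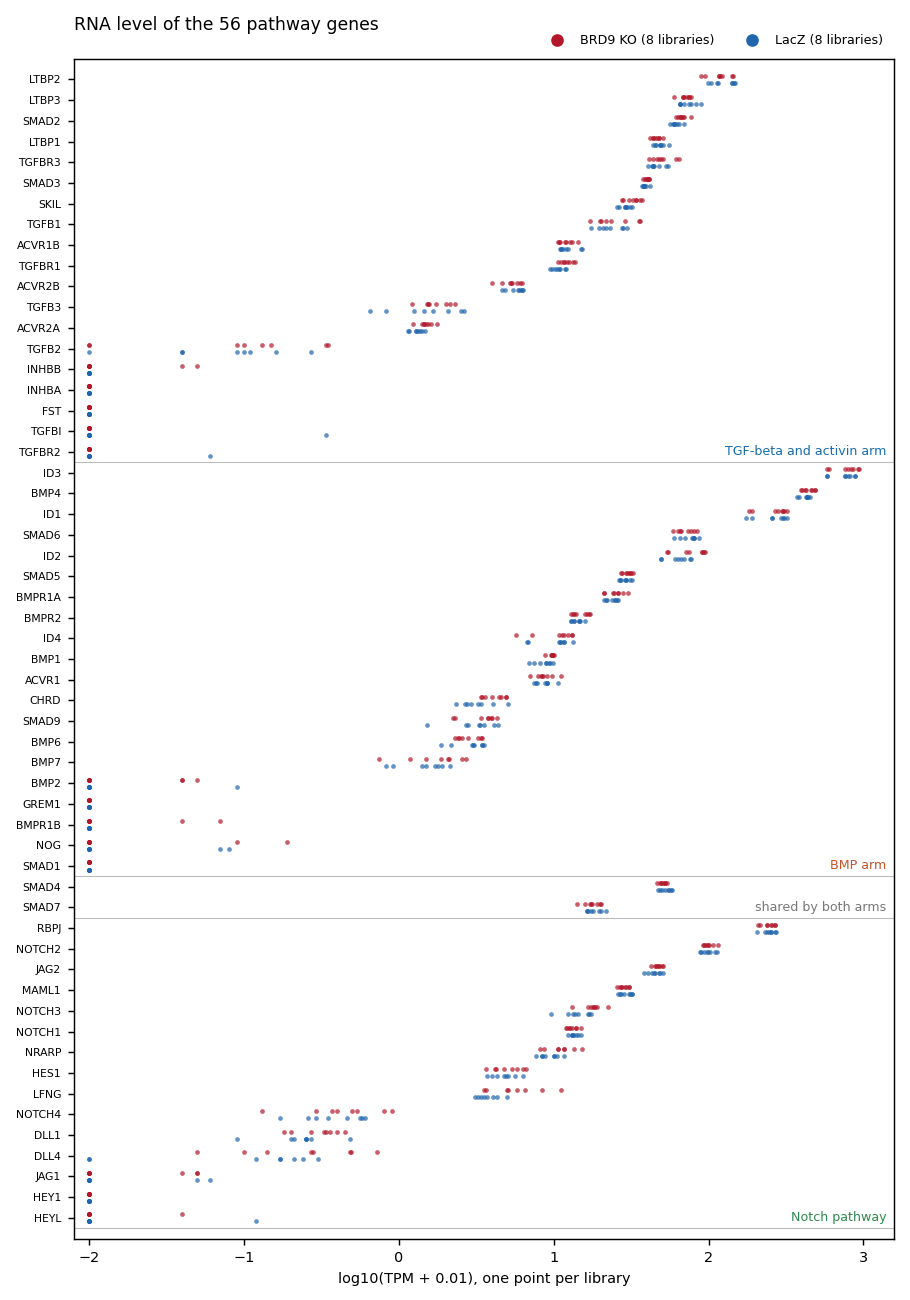
RNA level of each of the 56 genes in log10(TPM + 0.01), with a point for each of 8 BRD9 KO and 8 LacZ libraries over days 1 to 5; of JAG1 the ID with counts is drawn. Genes run from high to low within each branch, ID3 and BMP4 head the BMP branch, and the points at the left edge are libraries with 0 TPM.

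Promoters of 50 of the 56 genes were found in RefSeq (table of build GRCh38.p14), each as 250 bases before and 50 bases from the start site on, and the windows printed here were located by exact match on GRCh37, the build of the files. BMP1, BMP2, BMP7, NOG, DLL1 and HEY1 had no entry. The windows were searched on both strands for GTGGGAA, which RBPJ binds, for the palindrome GTCTAGAC, which SMAD3 and SMAD4 bind, and for the GC-rich palindrome GGCGCC, bound by BMP-type SMADs. No capitals of different motifs overlap in the windows shown. HES1 and NRARP, the textbook Notch targets with measurable RNA, are shown as a pair, with SMAD6 as the single window of the 50 that holds GTCTAGAC. Capitals mark matches. They are HES1 on the plus strand (chr3:193853687-193853986), NRARP on the minus strand (chr9:140196674-140196973) and SMAD6 on the plus strand (chr15:66994324-66994623).
HES1: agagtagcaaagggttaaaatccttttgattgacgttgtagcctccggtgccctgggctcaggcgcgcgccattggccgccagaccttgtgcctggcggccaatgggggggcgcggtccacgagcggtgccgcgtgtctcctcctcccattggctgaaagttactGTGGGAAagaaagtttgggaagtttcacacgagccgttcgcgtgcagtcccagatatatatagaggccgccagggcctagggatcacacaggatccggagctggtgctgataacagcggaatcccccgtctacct
NRARP: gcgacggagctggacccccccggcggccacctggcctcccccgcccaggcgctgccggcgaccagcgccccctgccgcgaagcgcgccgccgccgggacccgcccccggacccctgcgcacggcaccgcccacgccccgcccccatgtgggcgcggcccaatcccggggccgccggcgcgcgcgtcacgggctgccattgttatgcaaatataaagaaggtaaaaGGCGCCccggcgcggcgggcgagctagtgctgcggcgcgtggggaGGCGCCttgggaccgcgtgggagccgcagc
SMAD6: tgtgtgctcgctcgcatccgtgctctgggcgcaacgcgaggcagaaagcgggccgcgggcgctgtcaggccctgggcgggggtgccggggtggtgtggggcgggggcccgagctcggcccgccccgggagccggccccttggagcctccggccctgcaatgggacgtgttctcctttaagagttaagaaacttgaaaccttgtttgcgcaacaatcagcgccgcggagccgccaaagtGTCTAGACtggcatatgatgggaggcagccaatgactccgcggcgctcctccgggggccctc
With the first transcribed base counted as 1 and bases before it as negative, GTGGGAA starts at -85 in HES1, GGCGCC starts at -25 and 21 in NRARP, and GTCTAGAC starts at -12 in SMAD6. GTGGGAA was present in 4 of the 50 windows (FST, HES1, HEYL and TGFB3), which is 8% beside 6.28% of 27305 promoters. GTCTAGAC was present in 1 of 50, beside 0.201% of all promoters. GGCGCC was present in 19 of 50, or 38%, beside 19.0% of all promoters. The promoters compared were not matched for GC content, which bears on a motif made of G and C alone. None of the windows of ID1, ID2, ID3, ID4, SMAD6 and SMAD7 held GGCGCC. Among the genes called over days 3 and 5 below, GGCGCC occurred in 7 of 14 windows of genes that were higher in BRD9 KO cells and in 3 of 8 windows of genes that were lower, and GTGGGAA in none of the 22. A match is a run of letters and no evidence of binding.

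Over days 3 and 5 together (the late contrast, the mean of the log2 fold changes of both days), 23 of the 41 tested genes passed the test, 15 of them higher and 8 lower in BRD9 KO than in LacZ cells. The test was edgeR's quasi-likelihood test with p-values adjusted over all 15027 tested genes, and calls were made at an adjusted p under 0.05. Among all tested genes 10.6% were called higher and 10.9% lower, 21.5% in either direction, against 36.6% and 19.5% of the pathway genes. The pathway genes were also measured more precisely than most, with a median standard error (SE) of 0.0467 beside 0.0612 for all genes and a median log2 CPM of 6.0 beside 4.5. Their median log2 fold change was 0.09, beside 0.00 for all genes. The differences were small: the 23 had a median absolute log2 fold change of 0.19, and a single gene, LFNG, passed 0.5. On the TPM scale (limma on log2(TPM + 1)) 14 of the 23 calls were lost, and those of BMP4, ID2, ID3, LFNG, LTBP2, NRARP, SKIL, SMAD4 and TGFBR3 were kept.

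Calls fell in both directions in each branch. In the BMP branch 6 of 15 tested genes were higher in BRD9 KO cells and 1 was lower, with a median of 0.09. In the TGF-beta and activin branch 5 of 13 were higher and 4 were lower, with a median of 0.08. In the Notch pathway 4 of 11 were higher and 2 were lower, with a median of 0.12. Of the shared genes SMAD4 was lower and SMAD7 was not called. Whether the branches differ from each other was not tested, since genes of a pathway are not replicates.

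Calls grew in number over the days. On day 1 a single gene, RBPJ, was called, higher in BRD9 KO cells, when 0.273% of all genes were called higher and 0.266% lower. On day 2 NOTCH3 was called higher and LTBP2 lower, beside 1.12% and 1.58% of all genes. On day 3 the pathways had 8 genes called higher and 3 lower (all genes, 4.59% and 5.85%), and on day 5 they had 10 higher and 5 lower (7.53% and 7.45%). Of the 23 late calls 6 were called on both days, 5 on day 3 alone, 9 on day 5 alone and 3 on neither day, and the fold changes of days 3 and 5 had the same sign in all 23. Guides are called separated below where both libraries of a guide lay above, or below, both of the other. This was so on both late days in 20 of the 23 genes, and the share over all tested genes was not counted. The 23 were chosen by the late contrast from the same libraries. Separation and equal signs on the late days therefore follow in part from that choice and are no added support. Leaving out a library moved some of these counts. The call of RBPJ on day 1 was lost without any of the 4 libraries, at adjusted p of 0.156 to 0.279, and that of NOTCH3 on day 2 without BRD9 KO replicate 1 (0.0859), BRD9 KO replicate 2 (0.068) or LacZ replicate 1 (0.212), while the count of day 3 fell to 5 without LacZ replicate 2 and that of day 5 to 9 without BRD9 KO replicate 2.

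**Figure D2:**
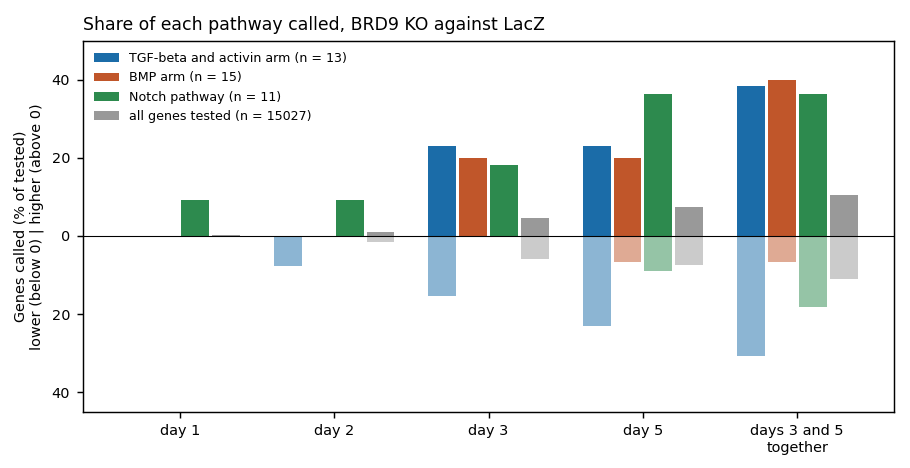
Percentage of tested genes called in BRD9 KO against LacZ cells, higher above 0 and lower below 0, by day and over days 3 and 5 together, for the TGF-beta and activin branch (n = 13), the BMP branch (n = 15), the Notch pathway (n = 11) and all tested genes (n = 15027). Late bars above 0 stand at 38.5%, 40% and 36.4% for the branches and 10.6% for all genes, and bars below 0 at 30.8%, 6.67%, 18.2% and 10.9%.

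**Figure D3:**
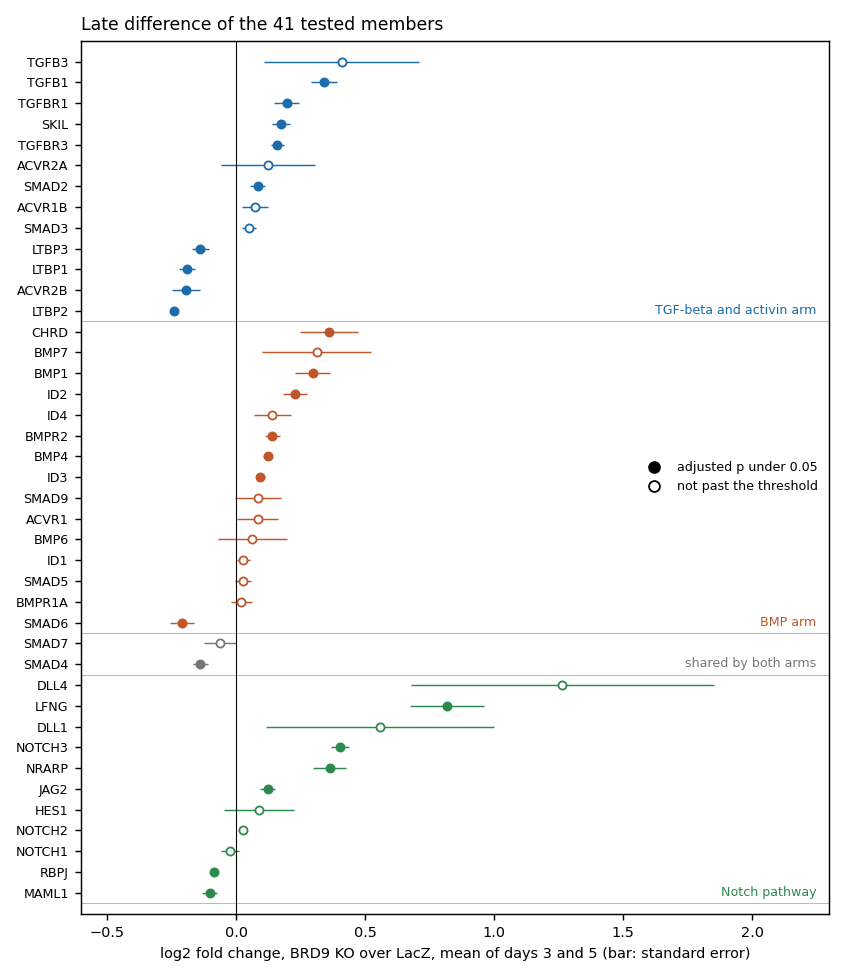
Late log2 fold change of BRD9 KO over LacZ, mean of days 3 and 5, with its SE as a bar, for the 41 tested genes grouped by branch. Filled points passed an adjusted p of 0.05; the wide bars of DLL4, DLL1 and TGFB3 belong to genes with few counts, and LFNG is the highest filled point at 0.82.

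In the TGF-beta and activin branch, the ligand TGFB1 and the receptors TGFBR1 and TGFBR3 were higher in BRD9 KO cells, while 3 matrix proteins of the latent TGF-beta binding family were lower. TGFB1, the main TGF-beta ligand, had 54.9 and 52.7 CPM in BRD9 KO libraries of day 5, against 35.3 and 33.9 CPM in LacZ libraries. On the earlier days its libraries of both guides lay together between 26.5 and 39.3 CPM, and the day 5 BRD9 KO libraries stood above every other library of the course. The day 5 log2 fold change was 0.63 (SE 0.0673, 1.55-fold, adjusted p = 1.94e-06), beside 0.05 on day 3 (adjusted p = 0.766). In current annotation TGFB1 shares 215 exonic bases with HNRNPUL1 on the opposite strand, which averaged 3344 counts a library beside 462 for TGFB1, and the library kit kept no strand. HNRNPUL1 was lower in BRD9 KO cells (late log2 fold change -0.14, adjusted p = 0.000112). TGFB3, another ligand, was low, between 1.09 and 1.52 CPM in BRD9 KO libraries of days 3 and 5 and between 0.595 and 1.45 CPM in LacZ libraries, and was not called (late log2 fold change 0.41, SE 0.301, adjusted p = 0.386).

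The latent TGF-beta binding proteins, extracellular matrix proteins of which LTBP1 and LTBP3 hold TGF-beta in its inactive form, were all 3 lower in BRD9 KO cells. LTBP2, which does not itself bind latent TGF-beta, had 531 and 516 CPM in BRD9 KO libraries of day 5, against 664 and 666 CPM in LacZ libraries. Its log2 fold change was 0.07 on day 1 (adjusted p = 0.164), -0.17 on day 2 (adjusted p = 2.22e-05), -0.13 on day 3 (adjusted p = 8.25e-05) and -0.35 on day 5 (SE 0.0187, adjusted p = 1.87e-10). The LTBP2 libraries of the guides did not overlap in CPM on days 2, 3 and 5, but on the TPM scale its difference was -0.14 on day 2 (adjusted p = 0.151, limma) and -0.05 on day 3 (adjusted p = 0.598), and neither was called. LTBP1 had 136 and 130 CPM in BRD9 KO libraries of day 3, against 159 and 150 CPM in LacZ libraries (log2 fold change -0.20, SE 0.0442, adjusted p = 0.00489). LTBP3 had 108 and 103 CPM in BRD9 KO libraries of day 5, against 123 and 121 CPM in LacZ libraries (log2 fold change -0.21, SE 0.0456, adjusted p = 0.0034). Both were separated on those days, whereas on day 3 the LTBP3 libraries overlapped. On the TPM scale the late difference of LTBP3 was -0.01 (adjusted p = 0.961, limma on log2(TPM + 1)) in place of -0.14, and that of LTBP2 was -0.14 (adjusted p = 0.00532) in place of -0.24. LTBP1 was not called on the TPM scale either, at -0.17 on day 3 (adjusted p = 0.331, limma) and -0.15 over the late days (adjusted p = 0.126). The day 3 call of LTBP1 was lost without BRD9 KO replicate 2 (0.0581) or LacZ replicate 1 (0.11), and the day 5 call of LTBP3 without BRD9 KO replicate 2 (0.0652), while the late calls of all 3 held without any single library.

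Exons of ACVR2A, BMP6 and DLL1 also overlap opposite-strand genes (ORC4 by 431 bases, TXNDC5 by 212 and FAM120B by 370), and reads over those bases cannot be assigned.

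Receptors moved in both directions. TGFBR1, the type I receptor of TGF-beta, had 42.7 and 42.4 CPM in BRD9 KO libraries of day 3, against 36.1 and 36.0 CPM in LacZ libraries (log2 fold change 0.24, SE 0.0691, adjusted p = 0.0326; late 0.20, adjusted p = 0.00647). TGFBR3, a co-receptor that presents the ligand, had 221 CPM in both BRD9 KO libraries of day 3, against 199 and 191 CPM in LacZ libraries (0.18, SE 0.035, adjusted p = 0.00219; late 0.16, adjusted p = 0.000129). Guides were separated for both receptors on days 3 and 5. ACVR2B, a type II receptor of activins and BMPs, was called lower over the late days only (late log2 fold change -0.20, SE 0.0548, adjusted p = 0.0147), with 39.9 and 36.8 CPM in BRD9 KO libraries of day 5, against 44.7 and 42.5 CPM in LacZ libraries. The activin receptors ACVR1B and ACVR2A were not called, at late log2 fold changes of 0.07 (SE 0.0511) and 0.12 (SE 0.182). The call of TGFBR1 on day 3 was lost without any of its 4 libraries (0.0988 to 0.17) and with DESeq2 (0.118), and that of TGFBR3 on day 3 without LacZ replicate 2 (0.0532). The late call of ACVR2B was lost without BRD9 KO replicate 2 of day 3 (0.0647) or day 5 (0.0927) or LacZ replicate 1 of day 3 (0.0815) or day 5 (0.0724).

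Among the transducers, SMAD2 was called and SMAD3 was not. SMAD2 had 95.3 and 89.2 CPM in BRD9 KO libraries of day 5, against 83.9 and 79.9 CPM in LacZ libraries (log2 fold change 0.16, SE 0.0405, adjusted p = 0.00901), and its libraries overlapped on day 3, where the log2 fold change was 0.00. The late call of SMAD2 (0.08, adjusted p = 0.043) was lost without 6 of the 8 late libraries, at 0.0637 to 0.195; it remained without LacZ replicate 1 or BRD9 KO replicate 2 of day 5. DESeq2 did not call it either on day 5 (0.0736) or over the late days (0.219), the late call was also lost with no filter on low counts (0.12) and with the libraries of the contrast alone (0.0884), and the day 5 call was lost without BRD9 KO replicate 1 (0.118) or LacZ replicate 2 (0.127). SMAD3 had a late log2 fold change of 0.05 (SE 0.0269, adjusted p = 0.23). SKIL, a repressor of SMAD2 and SMAD3 that TGF-beta itself induces, had 104 and 103 CPM in BRD9 KO libraries of day 3, against 89.6 and 85.4 CPM in LacZ libraries (0.24, SE 0.0478, adjusted p = 0.00251), a call lost without LacZ replicate 2 (0.0517). Its late log2 fold change was 0.17 (SE 0.0342, adjusted p = 0.000977), and the guides were separated on both late days.

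In the BMP branch the genes called higher were a ligand, extracellular regulators, the type II receptor and targets. No measured transducer or type I receptor was called. BMP4, the abundant ligand, had 454 and 457 CPM in BRD9 KO libraries of day 5, against 418 and 417 CPM in LacZ libraries. It was not called on day 1 (log2 fold change -0.04, adjusted p = 0.553) and was higher on day 3 (0.12, adjusted p = 0.00229) and on day 5 (0.13, SE 0.0228, 1.09-fold, adjusted p = 0.000615), with separated guides on both late days. BMP6 and BMP7, the other measured ligands, had few counts and were not called (late log2 fold change 0.06, SE 0.134, and 0.31, SE 0.21). CHRD, an extracellular protein that binds BMP4 and keeps it from its receptor, and BMP1, the metalloprotease that cleaves CHRD and is not a ligand despite its name, both were higher. BMP1 had 20.9 and 20.4 CPM in BRD9 KO libraries of day 5, against 14.1 and 17.2 CPM in LacZ libraries (0.41, SE 0.098, adjusted p = 0.00718; late 0.30, adjusted p = 0.00384). CHRD had 7.81 and 7.06 CPM in BRD9 KO libraries of day 5, against 5.8 and 5.34 CPM in LacZ libraries (0.40, SE 0.156, adjusted p = 0.0977), and was called over the late days (0.36, SE 0.113, adjusted p = 0.0294).

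BMP1 and CHRD libraries were separated on both late days. The call of BMP1 on day 5 was lost without LacZ replicate 1, whose 14.1 CPM was the lowest of that day and without which the log2 fold change was 0.26 (adjusted p = 0.175), and with DESeq2 (0.0585). The late call of CHRD was lost with DESeq2 (0.231), with no filter on low counts (0.0696) and with the libraries of the contrast alone (0.0593), and without BRD9 KO replicate 1 of day 3 (0.227) or day 5 (0.0863), LacZ replicate 1 of day 3 (0.106) or day 5 (0.0509), or LacZ replicate 2 of day 5 (0.0879).

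BMPR2, the type II BMP receptor, had 111 and 109 CPM in BRD9 KO libraries of day 3, against 97.5 and 97.6 CPM in LacZ libraries (log2 fold change 0.17, SE 0.0404, adjusted p = 0.0085; late 0.14, adjusted p = 0.00173). Its day 3 call was lost without BRD9 KO replicate 1 (0.0961), LacZ replicate 1 (0.056) or LacZ replicate 2 (0.0632), whereas its late call held without any single library. The type I receptors BMPR1A and ACVR1 were not called, at late log2 fold changes of 0.02 (SE 0.0402) and 0.08 (SE 0.0804). The transducers SMAD5 and SMAD9 were likewise not called, at 0.03 (SE 0.0306) and 0.08 (SE 0.0884).

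Of the ID genes, the classical BMP targets, ID2 and ID3 were higher in BRD9 KO cells and ID1 and ID4 were not called. ID2 had 57.6 and 57.4 CPM in BRD9 KO libraries of day 5, against 46.7 and 49.9 CPM in LacZ libraries (log2 fold change 0.25, SE 0.0648, adjusted p = 0.0106; late 0.23, adjusted p = 0.0014). ID3 had 502 and 514 CPM in BRD9 KO libraries of day 3, against 462 and 467 CPM in LacZ libraries (0.13, SE 0.0237, adjusted p = 0.00143; late 0.09, adjusted p = 0.00037). Guides were separated for both genes on days 3 and 5. ID1 had 177 and 171 CPM in BRD9 KO libraries of day 5, against 180 and 175 CPM in LacZ libraries, which overlap, and a late log2 fold change of 0.03 (SE 0.0262, adjusted p = 0.518). ID4 had a late log2 fold change of 0.14 (SE 0.073, adjusted p = 0.195). SMAD6, the inhibitory SMAD of the BMP branch and the holder of the GTCTAGAC window, was its only gene called lower. It had 87.9 and 77.4 CPM in BRD9 KO libraries of day 5, against 95.0 and 104 CPM in LacZ libraries (-0.28, SE 0.0654, adjusted p = 0.00658; late -0.21, adjusted p = 0.00307). The SMAD6 call of day 5 was lost without BRD9 KO replicate 2 (log2 fold change -0.17, adjusted p = 0.179) or LacZ replicate 2 (0.103), and that of ID2 without BRD9 KO replicate 2 (0.0716) or LacZ replicate 1 (0.147), while both late calls held without any single library.

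SMAD4, the partner of the SMADs of both branches, had 69.3 and 64.1 CPM in BRD9 KO libraries of day 3, against 75.3 and 77.2 CPM in LacZ libraries (log2 fold change -0.19, SE 0.0431, adjusted p = 0.00832). On day 5 it was at 72.9 and 75.1 CPM in BRD9 KO libraries, against 79.6 and 78.3 CPM in LacZ libraries (-0.09, adjusted p = 0.183), so that the guides were separated on both days and the late difference was called (-0.14, SE 0.0303, adjusted p = 0.00245). The day 3 call was lost without BRD9 KO replicate 2 (0.1) or LacZ replicate 2 (0.0825) and with DESeq2 (0.0768), and the late call was kept in all of these. SMAD7, which blocks the receptors of both branches and is induced by them, had 28.2 CPM in both BRD9 KO libraries of day 5, against 32.1 and 28.4 CPM in LacZ libraries, and was not called (late -0.06, SE 0.0623, adjusted p = 0.554).

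In the Notch pathway a receptor, a ligand, a receptor-modifying enzyme and a target were higher in BRD9 KO cells, and the nuclear partners RBPJ and MAML1 were lower. NOTCH3 had 72.9 and 70.8 CPM in BRD9 KO libraries of day 5, against 54.2 and 55.1 CPM in LacZ libraries (log2 fold change 0.39, SE 0.0477, 1.31-fold, adjusted p = 9.81e-06). On day 3 it had 57.1 and 59.3 CPM in BRD9 KO libraries, against 41.8 and 45.3 CPM in LacZ libraries (0.41, adjusted p = 2.42e-05). Both BRD9 KO libraries of NOTCH3 stood above both LacZ libraries on each of the 4 days, with calls on days 2, 3 and 5. On the TPM scale the guides overlapped on day 5, at 16.5 and 18.1 TPM in BRD9 KO libraries and 13.7 and 16.6 TPM in LacZ libraries (0.19, adjusted p = 0.571, limma), while the late difference was 0.33 (adjusted p = 0.0826). NOTCH1 and the far more abundant NOTCH2 were not called, with late log2 fold changes of -0.02 (SE 0.0348) and 0.03 (SE 0.0169). NOTCH2 had 618 and 610 CPM in BRD9 KO libraries of day 5, against 599 and 588 CPM in LacZ libraries; it is nearly identical over part of its length to NOTCH2NL, which averaged 357 counts a library, so that its counts may be shared.

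LFNG, the glycosyltransferase that modifies Notch receptors and changes their response to ligands, showed the largest late log2 fold change of the 23 genes called, 0.82 (SE 0.144, 1.76-fold, adjusted p = 0.000347). It had 12.5 and 9.80 CPM in BRD9 KO libraries of day 5, against 5.88 and 5.26 CPM in LacZ libraries (0.98, SE 0.192, adjusted p = 0.00135). On day 3 LFNG had 6.03 and 7.15 CPM in BRD9 KO libraries, against 4.20 and 4.12 CPM in LacZ libraries (0.65, adjusted p = 0.062). The guides were separated on days 2, 3 and 5 and the call of day 5 held without any single library. JAG2, the abundant Notch ligand of these cells, had 105 and 109 CPM in BRD9 KO libraries of day 5, against 94.0 and 90.7 CPM in LacZ libraries (0.21, SE 0.0425, adjusted p = 0.00191; late 0.12, adjusted p = 0.00631). On the TPM scale JAG2 was not called on day 5 (0.14, adjusted p = 0.333, limma) or over the late days (0.13, adjusted p = 0.121). DLL1 and DLL4 were close to the floor, with at most 12 and 15 counts in a library. DLL4 had 1.18 and 0.791 CPM in BRD9 KO libraries of day 5, against 0.223 and 0.445 CPM in LacZ libraries, and neither its late difference (1.26, SE 0.588, adjusted p = 0.144) nor that of DLL1 (0.56, SE 0.441, adjusted p = 0.425) was called.

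RBPJ had 618 and 626 CPM in BRD9 KO libraries of day 5, against 688 and 691 CPM in LacZ libraries (log2 fold change -0.15, SE 0.0187, adjusted p = 1.58e-05). On day 1 it stood the other way, with 696 and 707 CPM in BRD9 KO libraries and 661 CPM in both LacZ libraries (0.09, SE 0.0187, adjusted p = 0.0477), a call lost without any of its 4 libraries. The late log2 fold change was -0.09 (adjusted p = 6.82e-05) on the count scale and -0.05 (adjusted p = 0.391, limma) on the TPM scale. MAML1, the coactivator that joins RBPJ, was called over the late days (-0.10, SE 0.0299, adjusted p = 0.0191), with 101 and 96.9 CPM in BRD9 KO libraries of day 5, against 105 and 109 CPM in LacZ libraries. That call was lost with DESeq2 (0.0817), and without replicate 2 of BRD9 KO day 3 (0.0589), BRD9 KO day 5 (0.103), LacZ day 3 (0.0898) or LacZ day 5 (0.084).

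Of the Notch targets shown as sequences above, NRARP was called and HES1 was not. NRARP, a Notch target whose protein dampens the pathway, had 23.0 and 20.5 CPM in BRD9 KO libraries of day 3, against 17.9 and 16.3 CPM in LacZ libraries (log2 fold change 0.36, SE 0.0831, adjusted p = 0.00821), and 16.2 CPM in both BRD9 KO libraries of day 5, against 11.8 and 13.5 CPM in LacZ libraries (0.37, adjusted p = 0.0115). Its late log2 fold change was 0.36 (SE 0.0628, 1.29-fold, adjusted p = 0.000297), called in every alternative tried. HES1, the repressor most used as a readout of Notch, had 5.09 and 5.66 CPM in BRD9 KO libraries of day 5, against 4.99 and 5.61 CPM in LacZ libraries, which overlap, and a late log2 fold change of 0.09 (SE 0.136, adjusted p = 0.716). The difference between the 2 genes was not tested. The NRARP call of day 3 was lost without BRD9 KO replicate 1 (0.188) or LacZ replicate 2 (0.114), that of day 5 without BRD9 KO replicate 2 (0.0777) or LacZ replicate 1 (0.238), and DESeq2 gave 0.145 on each of these days.

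**Figure D4:**
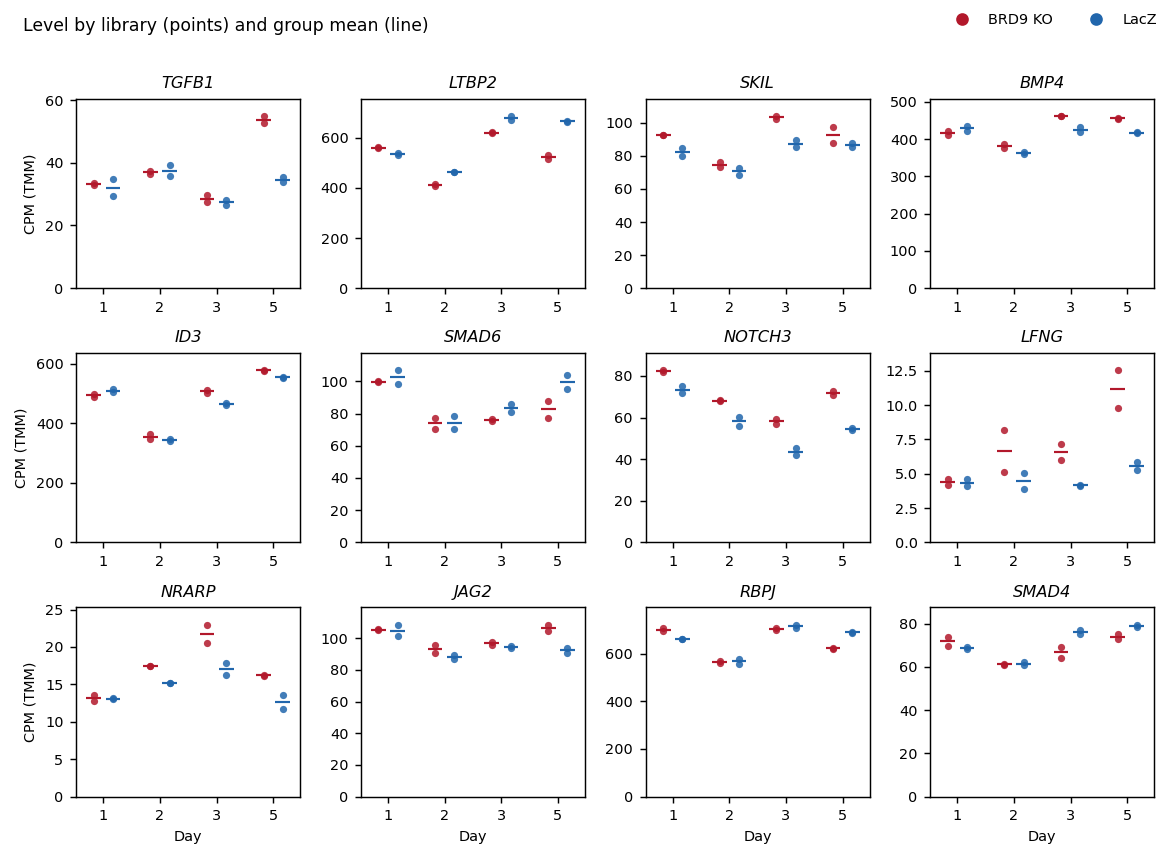
CPM of 12 genes in every library by day, BRD9 KO (red) left of LacZ (blue), with lines at group means (n = 2) and axes from 0. The day 5 BRD9 KO points of TGFB1 (54.9 and 52.7 CPM) and LFNG (12.5 and 9.80 CPM) stand above all other libraries of those genes, and LTBP2 lies below LacZ on days 2, 3 and 5.

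The size of the BRD9 KO difference itself changed between the early days (1 and 2) and the late days (3 and 5) in 8 genes, 4 upward and 4 downward, beside 3.41% and 4.03% of all genes. It grew upward in TGFB1, BMP4, ID3 and NOTCH3 and downward in LTBP1, LTBP2, RBPJ and SMAD4. Levels also changed with time alone. In LacZ cells, day 5 over day 1, 6 of the 41 tested genes were higher and 10 lower (all genes, 12.7% and 12.9%). These 16 calls fell to 10 without replicate 1 and to 9 without replicate 2 of LacZ day 1. NOTCH2 was among them, with a log2 fold change of -0.34 (SE 0.0237, adjusted p = 6.9e-09) in LacZ cells beside the late BRD9 KO difference of 0.03. BMP6 (-0.72, adjusted p = 0.00857) and ACVR1 (-0.44, adjusted p = 0.00651) were lower in LacZ cells on day 5 too. The BMP6 call was lost without replicate 2 of LacZ day 1 (0.0892) or day 5 (0.0664), and that of ACVR1 without replicate 1 of LacZ day 1 (0.0873).

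Genes called between guides could also change with time in LacZ cells, and those whose LacZ call held without any single library are given here. Since the LacZ libraries of day 5 enter both comparisons, the log2 fold changes stand side by side without a test. NOTCH3 had a late BRD9 KO difference of 0.40 and a LacZ change over time of -0.43, and BMPR2 had 0.14 and -0.33. LTBP2 had -0.24 and 0.31, and SMAD4 had -0.14 and 0.20. LTBP3 had -0.14 and -0.31, and ID3 had 0.09 and 0.12. On the TPM scale the LacZ changes of NOTCH3 (-0.18, adjusted p = 0.517, limma), BMPR2 (-0.24, adjusted p = 0.0637) and LTBP3 (-0.26, adjusted p = 0.0604) were not called.

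**Figure D5:**
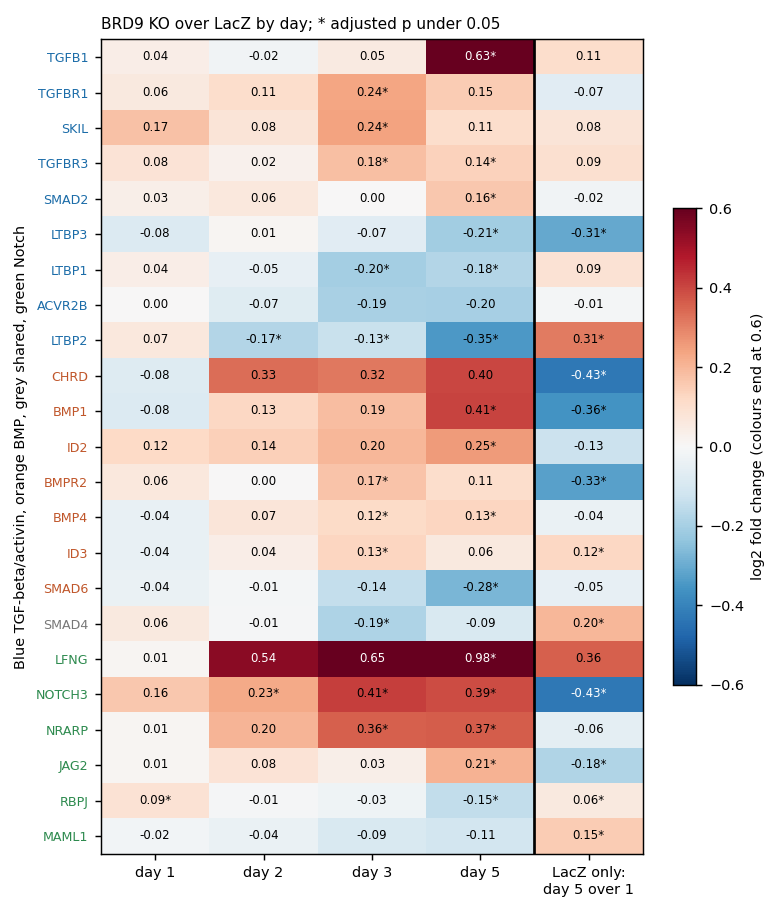
Log2 fold change of BRD9 KO over LacZ on each day for the 23 genes called over the late days, and of LacZ day 5 over LacZ day 1 in the column right of the line, with asterisks at an adjusted p under 0.05 and colours that end at 0.6. TGFB1 is pale up to day 3 and 0.63 on day 5, NOTCH3 is above 0 on all 4 days, and LTBP2 is below 0 from day 2.

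A further 99 genes of the same pathways, from a list, were counted for comparison, of which 67 were tested and 17 were higher and 5 lower over the late days. By branch, 8 were higher and 2 lower of 21 tested TGF-beta and activin genes, 3 higher and 2 lower of 14 BMP genes, and 6 higher and 1 lower of 32 Notch genes. All tested genes had 10.6% called higher and 10.9% lower, and the Notch share of 21.9% in either direction is near that of all genes, 21.5%. FSTL3, an activin-binding inhibitor, had 27.4 and 25.3 CPM in BRD9 KO libraries of day 5, against 14.1 and 11.8 CPM in LacZ libraries (late log2 fold change 0.89, SE 0.0673, adjusted p = 1.28e-08). THBS1, a matrix protein that can activate latent TGF-beta, had 3.63 and 4.20 CPM in BRD9 KO libraries of day 5, against 7.74 and 9.89 CPM in LacZ libraries (-0.88, SE 0.115, adjusted p = 1.51e-05). DLL3, a Delta family member that restrains Notch in its own cell, had 17.3 and 15.9 CPM in BRD9 KO libraries of day 5, against 9.15 and 7.93 CPM in LacZ libraries (0.74, SE 0.0883, adjusted p = 5.15e-06). Guides were separated for these 3 genes on both late days, which follows in part from their choice by the late contrast.

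The other called genes of the list with an absolute late log2 fold change past 0.5 were HES2, a HES family repressor (0.91, adjusted p = 0.000682), TLL2, a protease related to BMP1 (0.67, adjusted p = 0.00959), and GDF5, a BMP family ligand (-1.07, adjusted p = 0.0144). All 3 were low. Over days 3 and 5 GDF5 had 0.487 to 1.85 CPM in BRD9 KO libraries and 1.43 to 2.53 CPM in LacZ libraries. HES2 had 2.47 to 5.11 CPM in BRD9 KO libraries and 1.66 to 2.14 CPM in LacZ libraries. For TLL2 the ranges were 3.32 to 5.18 CPM in BRD9 KO libraries and 2.10 to 3.21 CPM in LacZ libraries. Within each late day the guides were separated for all 3 as well, which again follows in part from the choice. For GDF5 on day 3 this was narrow, with 0.845 and 1.85 CPM in BRD9 KO libraries and 1.94 and 1.90 CPM in LacZ libraries. Other called TGF-beta genes that were higher, listed after their values were seen, included CTGF (0.21), a common TGF-beta target, TGIF1 (0.32), a corepressor of SMADs, SMURF1 (0.17) and SMURF2 (0.15), ubiquitin ligases that act on receptors and SMADs, FBN1 (0.16), a matrix fibrillin, and FKBP1A (0.10), which binds type I receptors. Beside THBS1 the list had LEMD3, an inner nuclear membrane protein that binds SMADs, as its other lower TGF-beta gene (-0.08, adjusted p = 0.039). Left-out libraries were not run for these 99 genes.

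Cell type markers moved with the late contrast as well. KRT8 and KRT18 were higher in BRD9 KO cells (late log2 fold change 0.44 and 0.46) and VIM was lower (-0.07), and the list of 4 rhabdoid line markers summed to 6651 to 11691 CPM in BRD9 KO libraries and 6653 to 9549 CPM in LacZ libraries. Of 3 fibroblast markers, PDGFRA was lower (-0.57, adjusted p = 8.85e-07), at 15.5 to 34.8 CPM in BRD9 KO libraries and 23.2 to 39.4 CPM in LacZ libraries, while DCN and LUM did not pass 1 count in a library. CD68, of the blood list, was not called (0.01, adjusted p = 0.958). The part of these markers in the pathway results was not tested.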

How the data were processed

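Total RNA of 16 G401 libraries was made into libraries with the NEBNext Ultra RNA kit E7530 and sequenced on a NextSeq. The authors aligned reads to hg19 with STAR under ENCODE options and quantified genes with RSEM; versions are not given in the sources used here. The expected counts that the authors deposited estimate reads per gene, and 35.7% of the values above 0 were not whole. They were rounded, which moved no library total by more than 90.1. The TPM values that the authors deposited scale these counts by transcript length and library total, and served for levels and as an alternative scale.

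Counts were filtered with filterByExpr (minimum count 10, minimum total 15), which kept 15027 of 57820 genes, scaled by TMM, and tested by quasi-likelihood (glmQLFit and glmQLFTest of edgeR 4.0.16, R 4.3.3) in a model of 8 group means, leaving 8 residual degrees of freedom. The effect of the BRD9 guide over the LacZ guide was taken day by day, over days 3 and 5 together (late), and as late minus the days 1 and 2 average (early), and LacZ day 5 was set against LacZ day 1. Benjamini-Hochberg adjustment ran over all tested genes, with a threshold of 0.05. The steps were tested on simulated counts. Replicate libraries differed by 1.06 to 1.15 times counting noise at the median gene, so none was counted as a copy of another. That spread is little more than counting noise. It cannot tell separate cultures from repeat libraries of a single culture, and small differences were called against it.

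Every gene is named with its role. Values in every library are given on the day with the smallest adjusted p for up to 6 genes per branch and direction called late, and for genes called on day 1, on day 2 or in late minus early (up to 4 per direction). From the list of other pathway genes those called with an absolute late log2 fold change of at least 0.5 are named. Some called TGF-beta genes of that list with smaller changes are named outside this rule, after their values were seen. The genes, lists and tests were chosen with earlier results of these data known. Alternatives were DESeq2 size factors, no filter, a filter of 1 CPM in 2 libraries, DESeq2 1.42.0, limma-trend 3.58.1 on log2(TPM + 1), only the libraries of a contrast, a replicate block and each library left out. GRCh37 coordinates are those of the reference genome used here. A few results on other genes are not reported here.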

Additional observations from a re-analysis of the deposited data

Results flagged for a closer look

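In 8 genes the BRD9 KO difference of the late days (3 and 5) differed from that of the early days (1 and 2) by edgeR's test of that change, with p adjusted over 15027 genes. The change, late minus early in log2 fold change, was upward in TGFB1 (0.33, SE 0.0735, adjusted p = 0.00862), NOTCH3 (0.21, SE 0.048, adjusted p = 0.0108), BMP4 (0.11, SE 0.023, adjusted p = 0.00614) and ID3 (0.0941, SE 0.0239, adjusted p = 0.0208). It was downward in LTBP1 (-0.19, SE 0.0441, adjusted p = 0.0136), LTBP2 (-0.19, SE 0.0189, adjusted p = 2.8e-06), SMAD4 (-0.16, SE 0.0441, adjusted p = 0.0306) and RBPJ (-0.13, SE 0.0188, adjusted p = 0.000193). RBPJ is the gene of the 8 that was called in opposite directions on different days, higher in BRD9 KO cells on day 1 and lower on day 5.

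The change in TGFB1 rests on day 5, since its log2 fold change was 0.04, -0.02 and 0.05 on days 1, 2 and 3 and 0.63 on day 5. The calls of LTBP2, BMP4, RBPJ and TGFB1 held without any single library. That of NOTCH3 also held without any single library, but not with DESeq2 (0.0609). The call of LTBP1 missed the threshold if replicate 2 of BRD9 KO on day 1 (0.0501) or replicate 1 of LacZ on day 3 (0.0505) was left out, and that of ID3 if replicate 1 of BRD9 KO on day 2 (0.0538) or replicate 2 of LacZ on day 1 (0.053) or on day 2 (0.0562) was left out. That of SMAD4 was lost without any of 9 of the 16 libraries, with adjusted p of 0.0539 to 0.0826, and also with DESeq2 (0.161) and with no filter on low counts (0.115). On the TPM scale (limma on log2(TPM + 1)) BMP4 and ID3 were still called, while the change was 0.41 in TGFB1 (adjusted p = 0.179), 0.03 in NOTCH3 (0.97), -0.14 in LTBP1 (0.457), -0.08 in LTBP2 (0.331), -0.20 in SMAD4 (0.0581) and -0.06 in RBPJ (0.556).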

How the results depend on the processing

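Directions of the 23 late calls were kept under every alternative, and 9 of the genes (BMP4, ID2, ID3, LFNG, LTBP2, NRARP, SKIL, SMAD4 and TGFBR3) also passed the threshold in each. DESeq2 size factors and the filter of 1 CPM in 2 libraries lost none of the 23, no filter lost 2, DESeq2 lost 3, and the libraries of the contrast alone lost 2. The largest effect came from limma-trend on log2(TPM + 1), which lost 14 of the 23 and counted 9 late calls in all, 3 of TGF-beta and activin, 3 of BMP and 2 of Notch genes, with 0, 0, 2 and 4 calls on days 1, 2, 3 and 5, 2 for late minus early and 6 for time in LacZ cells. The cause was not tested. On day 1 the count was also 0 with no filter and with the libraries of the contrast alone, and on day 2 it was 1 with DESeq2. DESeq2 gave no adjusted p for 31 of the 41 genes on day 1 and for 3 over the late days. Leaving out each library gave 0 calls on day 1, 1 to 2 on day 2, 5 to 8 on day 3, 9 to 15 on day 5, 20 to 21 over the late days (7 to 8 TGF-beta and activin, 6 to 7 BMP, 5 to 6 Notch), 6 to 9 for late minus early and 9 to 12 for time in LacZ cells. Replicate numbers were not taken as pairs, since the deviations of like-numbered libraries of the guides from their group means had correlations of -0.0123, -0.0489, -0.0245 and -0.0176 across all genes on days 1, 2, 3 and 5, and of -0.0377, -0.12, 0.0979 and 0.179 across the 6298 genes above a log2 CPM of 5. With the number as a replicate block the counts were 1, 2, 10 and 16 on days 1, 2, 3 and 5, 22 over the late days (9, 6 and 6 by branch, without CHRD at 0.0571), 7 for late minus early and 13 for time in LacZ cells. Depth limits the 15 untested genes and DLL1, DLL4, TGFB3, BMP7 and ACVR2A, whose SE were 0.182 or more.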

Other observations

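All 4 ID genes and RBPJ were at their lowest on day 2 under both guides, a pattern read from the values and not tested. ID1 had 104 and 102 CPM in BRD9 KO libraries of day 2 and 104 and 95.8 CPM in LacZ libraries, against 173 and 175 CPM in BRD9 KO libraries and 173 and 170 CPM in LacZ libraries of day 1. ID3 had 346 and 365 CPM in BRD9 KO libraries of day 2 and 341 and 349 CPM in LacZ libraries, against 488 and 500 CPM in BRD9 KO libraries and 504 and 514 CPM in LacZ libraries of day 1. ID1 was back at 157 and 152 CPM in BRD9 KO libraries of day 3 and at 146 CPM in both LacZ libraries. LTBP2 followed the same course, with 415 and 408 CPM in BRD9 KO libraries of day 2 and 465 and 463 CPM in LacZ libraries, its lowest values under each guide. SMAD2 did not, at 85.8 and 84.2 CPM in BRD9 KO libraries of day 2 and 81.4 and 81.3 CPM in LacZ libraries, beside 85.3 CPM in both BRD9 KO libraries and 84.1 and 82.7 CPM in LacZ libraries of day 1.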
